A study of Sus scrofa with 4 samples.

Results

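The hemicentins and fibulins are 8 genes for secreted matrix proteins: HMCN1, HMCN2, FBLN1, FBLN2, FBLN5, FBLN7, EFEMP1 and EFEMP2. They were picked by gene name, and all 8 were found among the 29263 genes counted in each of 4 RNA sequencing libraries. The libraries came from lung cells of pigs with an LGR5-H2B-GFP knock-in. Its reporter, a green fluorescent histone, marks cells that transcribe LGR5, a receptor for the R-spondin proteins that amplify Wnt signalling. Dissociated live cells were sorted on the reporter into bright cells (GFP-HI) and dark cells (GFP-NEG), with 2 biological replicates of each, and both fractions carry the knock-in. The protocol in the labels covers adult and fetal lung together. The deposited comparison is named for adult pig, and no label gives an age. The comparison is that of reporter-bright with reporter-negative cells of the same tissue, and the headings of the authors' table name 2 pigs, though 2 of those headings do not match the counts beneath them. The labels number the replicates without saying that a number marks 1 pig, so differences between same-numbered libraries describe those libraries and are not taken as pairs of 1 animal.

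Hemicentins and fibulins share a C-terminal fibulin module and strings of calcium-binding EGF-like modules. Hemicentins are very long proteins with an array of immunoglobulin domains, and they help to fasten cells and neighbouring basement membranes to one another. The longer fibulins, FBLN1 and FBLN2, bind fibronectin, nidogens, laminins and the proteoglycans versican and aggrecan. Of the short fibulins, FBLN5 and EFEMP2 are needed to build elastic fibres, which give the lung its recoil. In zebrafish, Hmcn2 and Fbln1 act together at the junction of epidermis and dermis.

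HMCN2 and FBLN1 were already known to be high in GFP-HI when the family was picked, so the family was chosen with this comparison in view. The values of the 8 genes are therefore a description, and no p-value is given for them. Levels are in CPM, the usual scaling of a gene's counts to the size of its library, here with TMM-corrected library sizes. Fold changes come from 1 fit over all 19682 genes that passed the filter on low counts, and all 8 members passed it. Their standard errors (SE) use a spread set by the trend over all genes, so they are not the replicate error of each gene. In these bulk samples, fewer cells of a type and less RNA per cell cannot be told apart.

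LGR5 itself was at 146 and 152 CPM in the GFP-HI libraries, against 1.55 and 0.767 CPM in the GFP-NEG libraries, which is the direction of the labels. The totals were 24200550 and 24689986 counts for GFP-HI, and 6292253 and 7045652 for GFP-NEG. The 2 GFP-NEG libraries differed in their makeup. The summed level of 10 fibroblast markers was 25326 CPM in GFP-NEG replicate 1 and 9054 CPM in replicate 2, against 79894 and 69984 CPM in GFP-HI. Endothelial markers (8 genes) summed to 1396 and 567 CPM in GFP-NEG and to 209 CPM in each GFP-HI library. Immune markers (8 genes) summed to 1342 and 1803 CPM in GFP-NEG, and to 197 and 244 CPM in GFP-HI. Epithelial markers (8 genes) summed to 558 and 153 CPM in GFP-NEG and to 237 and 216 CPM in GFP-HI. Smooth muscle and pericyte markers (8 genes) summed to 2571 and 385 CPM in GFP-NEG and to 1746 and 2452 CPM in GFP-HI. Of the mesothelial markers, only WT1 and CALB2 were analysed here, and they summed to at most 3.18 CPM in any library. Of all genes tested, 8.35% were called higher in GFP-HI and 27.6% lower (edgeR, as below). Of the lists, 7 of 10 fibroblast markers were called higher, and 7 of 8 endothelial and 5 of 8 immune markers lower. Of the epithelial markers 2 of 8 were lower, a share near that of all genes. Of the 8 muscle and pericyte markers 1 was higher and 3 lower. Fewer were called without single libraries: 1 fibroblast marker without GFP-NEG replicate 2 and 4 without either GFP-HI replicate, and 2 to 4 endothelial markers without any library but GFP-NEG replicate 2. COL1A1, with a log2 fold change of 1.88, did not pass in edgeR (adjusted p of 0.36) but did in DESeq2 (0.0035). The log2 fold change was 0.45 for ACTA2, -1.88 for PECAM1, -3.51 for PTPRC and -1.35 for EPCAM. The part of this makeup in the differences of single genes was not tested.

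HMCN2 had the largest difference of the family. Its raw counts were 8320 and 3987 in GFP-HI, while each GFP-NEG library gave few reads, with 43 and 42 counts. Its levels were 377 and 198 CPM in the GFP-HI libraries, against 6.68 and 4.60 CPM in the GFP-NEG libraries. The groups lay far apart, since the lower GFP-HI library was 29.6 times the higher GFP-NEG library. The fitted log2 fold change was 5.67 ± 0.72 (SE, 2 libraries in each group), or 51.0-fold higher in GFP-HI, which is rank 7 of the 19682 genes. The GFP-NEG values rest on few reads: counting error alone (exact 95% Poisson interval) allows 4.83 to 8.99 CPM in replicate 1 and 3.32 to 6.22 CPM in replicate 2. These intervals overlap, so counts this low do not resolve whether the GFP-NEG libraries differed in HMCN2. In GFP-HI, replicate 1 was 1.91 times replicate 2.

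HMCN1, the other hemicentin, behaved differently in the GFP-NEG libraries. It was at 837 and 648 CPM in GFP-HI, against 267 and 26.2 CPM in GFP-NEG. The groups did not overlap, but GFP-NEG replicate 1 was 10.2 times GFP-NEG replicate 2, the widest such gap of the 8 genes. The fitted log2 fold change was 2.34 ± 0.75 (SE). It was 4.87 without GFP-NEG replicate 1 and 1.44 without GFP-NEG replicate 2. The pair of hemicentins thus had different profiles: HMCN1 was readily counted in both fractions, and HMCN2 in GFP-HI only.

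**Figure D1:**
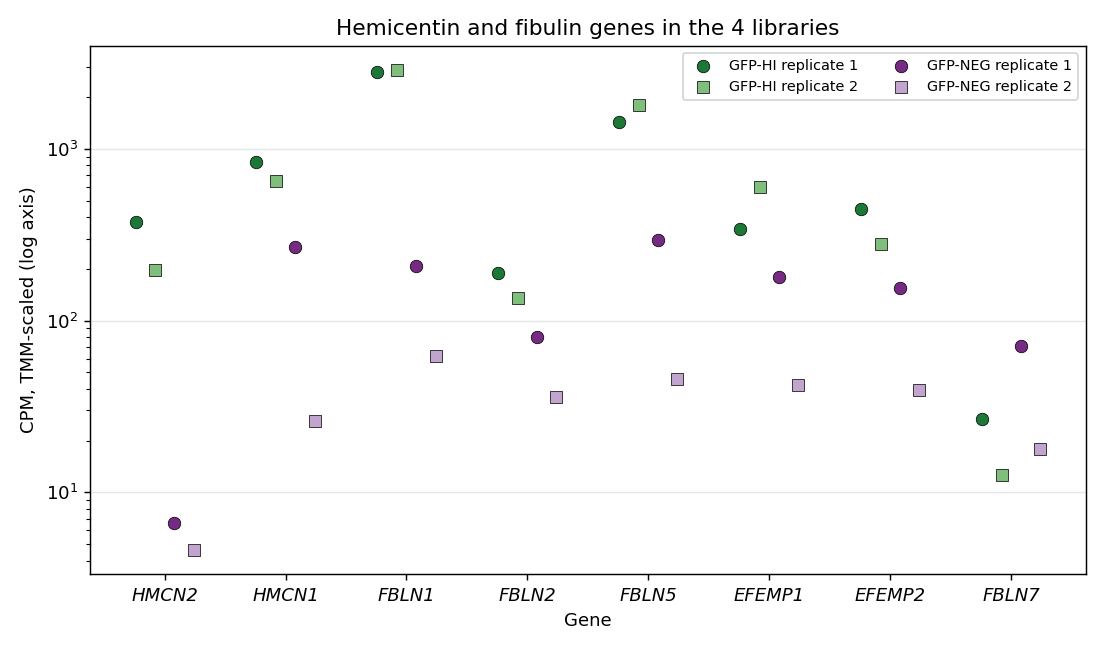
TMM-scaled CPM (log axis) of each hemicentin and fibulin gene in the 4 libraries, 1 point per library. HMCN2 falls from 377 and 198 CPM in GFP-HI to 6.68 and 4.60 CPM in GFP-NEG, and FBLN7 is the gene whose groups overlap.

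FBLN1 encodes a long fibulin that is also a cofactor of the protease ADAMTS1. It was at 2804 and 2878 CPM in the GFP-HI libraries, against 207 and 62.5 CPM in the GFP-NEG libraries. The GFP-HI replicates were within 1.03 times of each other, and the lower of them was 13.5 times the higher GFP-NEG library. Its log2 fold change was 4.40 ± 1.07 (SE), or 21.1-fold, which is rank 29 of 19682. FBLN2, the other long fibulin, was at 188 and 136 CPM in GFP-HI, against 80.6 and 35.8 CPM in GFP-NEG. The FBLN2 groups did not overlap, but the gap between them was narrow, at 1.69 times. Its log2 fold change was 1.48 ± 0.57 (SE), the smallest of the 7 positive values, and was 2.23 without GFP-NEG replicate 1 and 0.97 without GFP-NEG replicate 2.

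FBLN5, which binds elastin and integrins and is required for elastic fibres in mouse lung and skin, came next by fold change after HMCN2 and FBLN1. It was at 1427 and 1791 CPM in GFP-HI, against 294 and 45.6 CPM in GFP-NEG. The groups were 4.85 times apart at their closest. The log2 fold change was 3.24 ± 0.90 (SE), and it was 5.19 without GFP-NEG replicate 1 and 2.41 without GFP-NEG replicate 2.

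EFEMP1, a short fibulin that binds the metalloproteinase inhibitor TIMP3, was at 340 and 600 CPM in GFP-HI, against 179 and 42.4 CPM in GFP-NEG. EFEMP2, which brings lysyl oxidase to elastin, was at 444 and 278 CPM in GFP-HI, against 154 and 39.6 CPM in GFP-NEG. Neither gene overlapped between groups, and the replicates that were higher within GFP-HI were opposite ones. Their log2 fold changes were 2.09 ± 0.69 and 1.90 ± 0.65 (SE). Without GFP-NEG replicate 1 they were 3.52 and 3.24, and without GFP-NEG replicate 2 they were 1.36 and 1.19.

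FBLN7, a short fibulin that promotes cell adhesion, was the exception in direction. It was at 26.6 and 12.6 CPM in GFP-HI, against 71.0 and 18.0 CPM in GFP-NEG. The groups overlapped, because GFP-HI replicate 1 lay above GFP-NEG replicate 2. The fitted log2 fold change was -1.18 ± 0.53 (SE). It was 0.18 without GFP-NEG replicate 1, so the sign of the fitted value depended on that library, and -1.89 without GFP-NEG replicate 2. Within each replicate GFP-HI was the lower library, by a log2 difference of -1.41 in replicate 1 and -0.51 in replicate 2.

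A positive log2 fold change was found for 7 of the 8 genes, and the median of all 8 genes was 2.22, beside a median of -0.25 over all genes tested. In edgeR's quasi-likelihood test, 7 members were called higher at an adjusted p-value under 0.05 and 0 lower (1 lower at an unadjusted p under 0.05, and 0 under DESeq2). Of all genes tested, 8.35% were called higher and 27.6% lower, or 36.0% in either direction. The groups did not overlap, with GFP-HI higher, for 7 members and for 27.7% of all genes tested, and with GFP-HI lower for 0 members and 42.0% of all genes. Nothing is read from these counts, since the family was chosen on this comparison. Fewer members were called higher without either GFP-HI replicate or without GFP-NEG replicate 2, and fewer of all genes were too. The median of the 8 genes was 2.38 without GFP-HI replicate 1 and 2.39 without GFP-HI replicate 2. It was 4.20 without GFP-NEG replicate 1 and 1.40 without GFP-NEG replicate 2. The authors' deposited table gives log2 fold changes of 5.67 for HMCN2, 4.40 for FBLN1, 3.25 for FBLN5, 2.34 for HMCN1 and -1.18 for FBLN7.

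The differences between same-numbered libraries depend on a numbering that is not known to mark 1 pig. With this numbering, the log2 difference of HMCN2 was 5.82 in replicate 1 and 5.42 in replicate 2. These 2 values rest on 43 and 42 GFP-NEG counts, so their order is not resolved. FBLN1 differed by 3.76 and 5.53, and FBLN5 by 2.28 and 5.30. HMCN1 differed by 1.65 and 4.63, and EFEMP1 by 0.93 and 3.82. For EFEMP2 the values were 1.53 and 2.81, and for FBLN2 they were 1.22 and 1.93. All genes of the family but HMCN2 thus had the higher value in replicate 2, whose GFP-NEG library held fewer counts of the fibroblast markers. The fibroblast markers were also further apart in replicate 2, with a median log2 difference of 1.99 in replicate 1 (range 0.44 to 3.08) and 4.14 in replicate 2 (range 1.49 to 5.64).

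**Figure D2:**
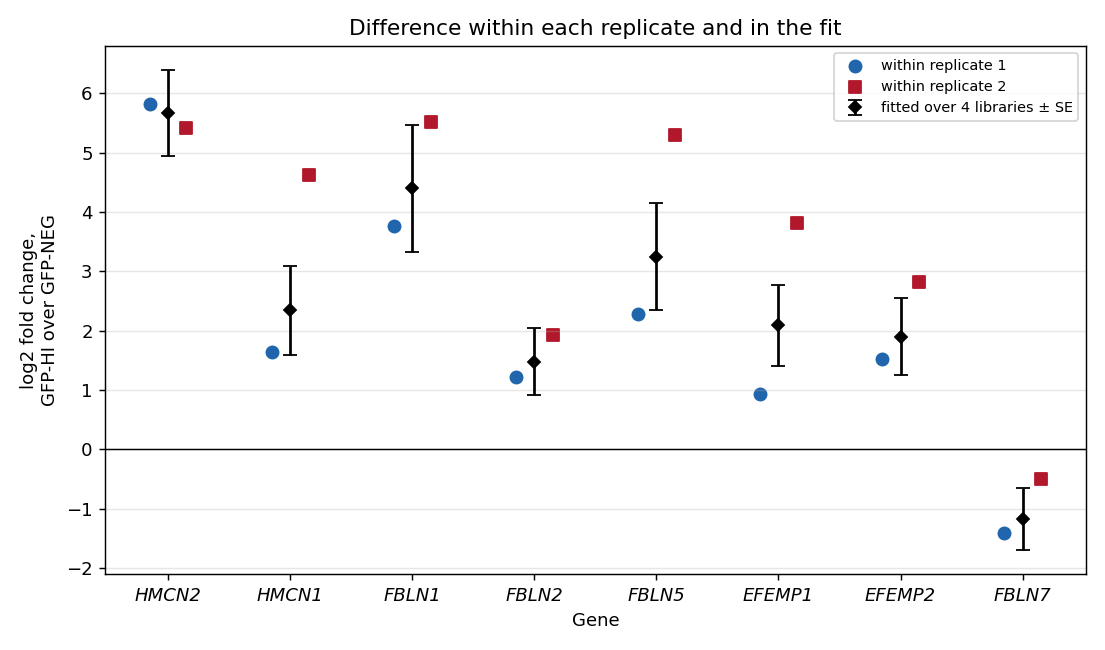
Log2 fold change of GFP-HI over GFP-NEG for each gene within replicate 1 (circles), within replicate 2 (squares) and in the fit over the 4 libraries (diamonds, ± SE). HMCN2 is the gene with the smaller value in replicate 2 (5.42 against 5.82); HMCN1, FBLN5 and EFEMP1 show the widest gaps between replicates.

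Setting each member against the fibroblast markers of its own library removes the library scaling from the comparison. This measure was chosen after the values had been seen. The summed markers were themselves at 79894 and 69984 CPM in GFP-HI, against 25326 and 9054 CPM in GFP-NEG. A gene with equal CPM in both fractions would therefore lie lower in GFP-HI on this scale. The share of each member's counts that came from fibroblasts was not tested. HMCN2 had 4.72 and 2.82 counts per 1000 counts of the 10 fibroblast markers in the GFP-HI libraries, against 0.264 and 0.509 in the GFP-NEG libraries. FBLN1 had 35.1 and 41.1 in GFP-HI, against 8.18 and 6.90. FBLN5 had 17.9 and 25.6 in GFP-HI, against 11.6 and 5.04. These 3 genes were higher in both GFP-HI libraries than in both GFP-NEG libraries on this scale too. HMCN1 was at 10.5 and 9.26 in GFP-HI, against 10.5 and 2.89 in GFP-NEG, so that its groups overlapped. EFEMP1 (4.25 and 8.58 against 7.05 and 4.69) and EFEMP2 (5.56 and 3.97 against 6.09 and 4.37) overlapped as well. FBLN2 was lower per marker count in GFP-HI, at 2.35 and 1.95 against 3.18 and 3.96, although its CPM were higher there. FBLN7, whose groups overlapped in CPM, was at 0.333 and 0.181 per marker count in GFP-HI, against 2.80 and 1.99 in GFP-NEG. On this scale GFP-NEG was 8.40 times the GFP-HI value in replicate 1 and 11.0 times in replicate 2.

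The 3 collagen genes COL1A1, COL1A2 and COL3A1 made up 72.7% to 93.3% of these marker counts. With the other 7 markers alone, HMCN2 was 10.4 times as high in GFP-HI as in GFP-NEG in replicate 1 and 1.37 times in replicate 2, and FBLN1 was 2.49 and 1.47 times as high. FBLN5 was then at 0.894 and 1.26 times, in opposite directions in the 2 replicates, and HMCN1 at 0.577 and 0.791 times. EFEMP1 and EFEMP2 no longer overlapped between groups and were lower in GFP-HI, at 27.1 and 31.5 against 77.4 and 69.5 counts per 1000 for EFEMP1 and 35.4 and 14.6 against 66.8 and 64.9 for EFEMP2. FBLN2 was at 0.430 and 0.122 times and FBLN7 at 0.0691 and 0.0225 times, lower in GFP-HI on both scales. Relative to the single markers, the log2 difference of HMCN2 exceeded that of 10 of the 10 markers in replicate 1 and of 8 in replicate 2. FBLN1 exceeded 10 and 9 of them, and FBLN7 exceeded 0 in either replicate.

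**Figure D3:**
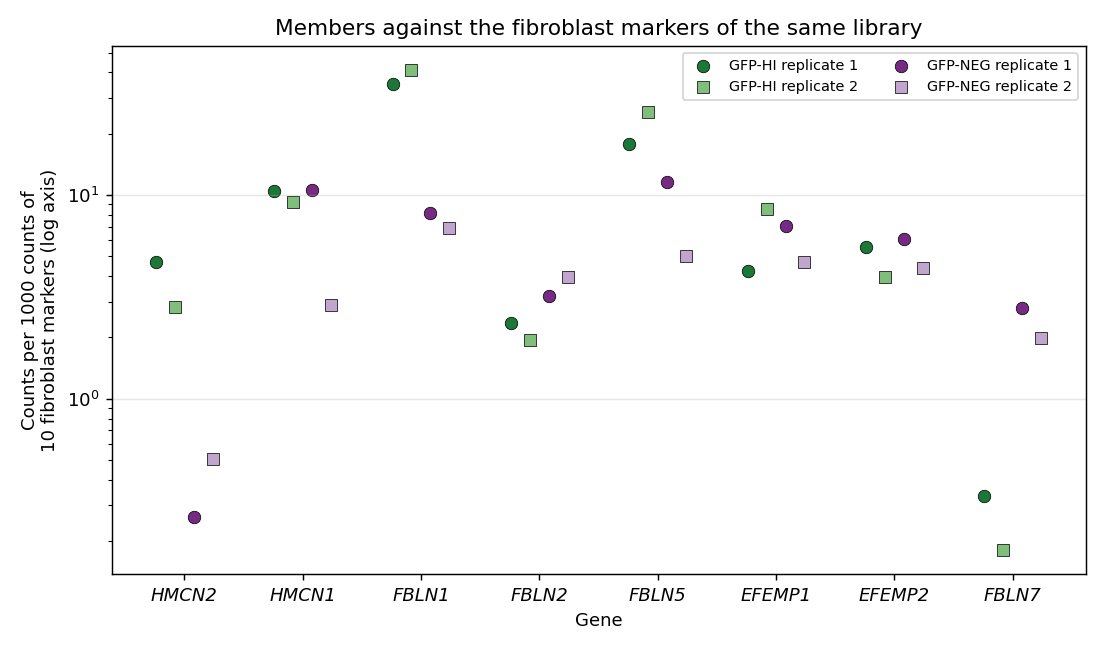
Counts of each gene per 1000 counts of the 10 fibroblast markers in the same library (log axis), 1 point per library. HMCN2, FBLN1 and FBLN5 lie higher in both GFP-HI libraries, HMCN1, EFEMP1 and EFEMP2 overlap between groups, and FBLN2 and FBLN7 lie lower in GFP-HI.

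The family as a whole took 0.588% and 0.534% of all GFP-HI counts, against 0.129% and 0.0356% of all GFP-NEG counts. Its makeup differed between the fractions. FBLN1 supplied 43.5% and 44.0% of the 8 genes' GFP-HI counts, against 16.5% and 22.7% in GFP-NEG. HMCN2 supplied 5.85% and 3.02% in GFP-HI, against 0.530% and 1.68%. FBLN2 supplied 2.92% and 2.08% in GFP-HI, against 6.40% and 13.0%, and FBLN7 supplied 0.413% and 0.193% against 5.64% and 6.54%. EFEMP1 and EFEMP2 also took larger shares in both GFP-NEG libraries than in both GFP-HI libraries. A share falls when another member rises more, so a smaller share is not a lower level. FBLN2, EFEMP1 and EFEMP2 had higher CPM in both GFP-HI libraries than in both GFP-NEG libraries. The shares of HMCN1 and FBLN5 overlapped between the groups. Counts grow with transcript length, so shares can be compared for 1 gene across libraries but not between genes.

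**Figure D4:**
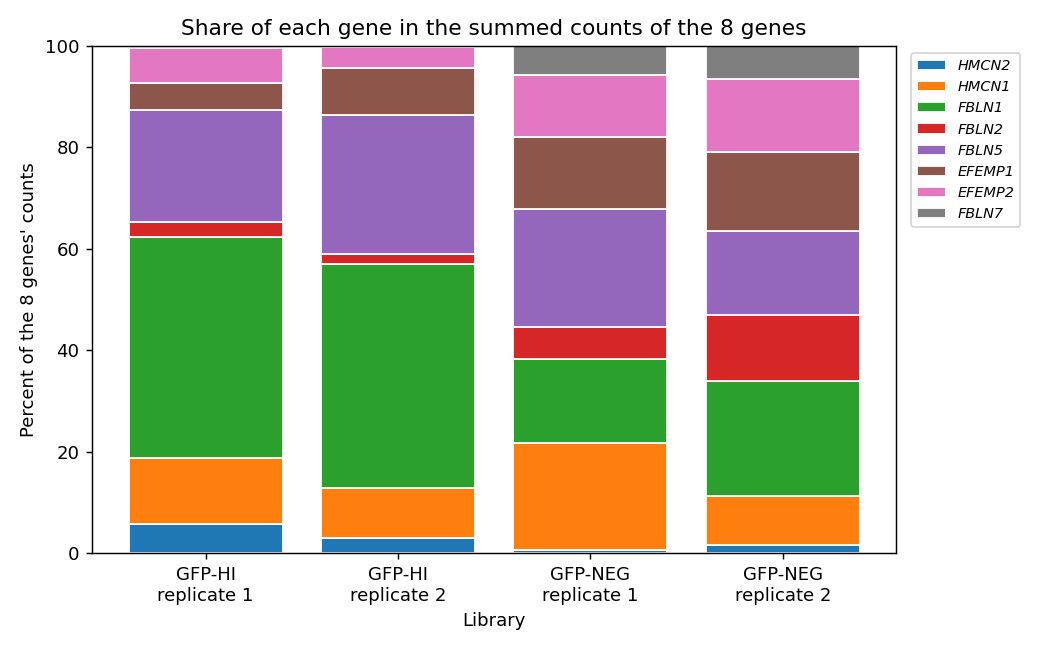
Share of each gene in the summed counts of the 8 genes, 1 bar per library. FBLN1 fills 43.5% and 44.0% of the GFP-HI bars and 16.5% and 22.7% of the GFP-NEG bars, while FBLN2 and FBLN7 take larger shares in GFP-NEG.

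The genes most like a member were sought by the root mean square difference of centred log2(CPM + 1) over the 4 libraries, among 9245 other genes with a symbol and a mean of at least 10 CPM. With 4 libraries and 9245 candidates, close profiles can be found for many genes, and shared regulation was not tested. Nearest to HMCN2 were the transcription factor OSR2 (0.44 log2 units), LGR5 (0.52) and ENC1 (0.66). HMCN2 was picked as high in GFP-HI and cells were sorted on the LGR5 reporter, so that both were high there was known beforehand. With 0.5 CPM added in place of 1, OSR2 stayed nearest (0.47), followed by BMP7 (0.62) and then LGR5 (0.63). LGR5 had 10 and 7 counts in the GFP-NEG libraries, and its distance from HMCN2 changed with the amount added. Nearest to FBLN1 was MATN2 (0.13), a matrilin that links matrix filaments, at 2918 and 3004 CPM in GFP-HI, against 241 and 56.6 CPM in GFP-NEG. RGS4 (0.22) and SAL1 (0.26) followed, and these 3 were the nearest with either amount added. HMCN1 was nearest to GPM6B (0.07), to HHIP (0.16), which binds hedgehog proteins, and to the glypican GPC3 (0.18). FBLN5 was nearest to SPARCL1 (0.12), COL13A1 (0.16) and the activin-binding protein FST (0.18).

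EFEMP1 was nearest to PLAT (0.04), DSTN (0.06) and NR2F2 (0.08), and EFEMP2 to BBS1 (0.06), SAMD4A (0.07) and FKBP9 (0.07). FBLN2 was nearest to ZNF398 (0.03), DCBLD2 (0.04) and the syndecan SDC1 (0.05). FBLN7 was nearest to the natriuretic peptide receptor NPR1 (0.11), the macrophage protein SIGLEC1 (0.15) and the R-spondin RSPO2 (0.17). Within the family, the nearest members of HMCN2 and FBLN7 were 0.68 (FBLN1) and 1.29 (FBLN2) log2 units away, against 0.41 to 0.55 for the others.

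Transcripts of elastic fibre, basement membrane, interstitial matrix, protease and integrin genes were followed in 5 lists, with adjusted p-values from the fit over all genes. The lists hold known partners of the family and other genes of the same kinds, so a listed gene need not encode a binding partner. The lists were drawn up with earlier results of these data known, so their counts describe these genes and are no independent support. Of 18 elastic fibre genes, 13 rose in GFP-HI, 0 fell and 5 did not pass (edgeR, adjusted p under 0.05; 0 were lower at an unadjusted p under 0.05 or under DESeq2), beside 8.35% of all genes called higher. The median log2 fold change of the list was 2.75. The fibroblast markers were higher by a like amount in the same libraries, with a median of 2.36, 10 of 10 values positive and 7 called, and their part in the rise of the list was not tested. The fibrillin FBN2 rose by 4.29 ± 0.62 in log2 units (SE, adjusted p of 9.7e-10), from 8.06 ± 6.60 CPM in GFP-NEG to 157 ± 44.9 CPM in GFP-HI (SD, n = 2, edgeR). FBN1, the main fibrillin of adult microfibrils, rose by 3.50 (adjusted p of 5.2e-04, edgeR), and the latent TGF-beta binding proteins LTBP2 and LTBP1 by 3.38 and 3.37 (3.2e-04 and 0.0015). Direct partners of the short fibulins rose too: elastin (ELN) by 2.72, lysyl oxidase (LOX) by 3.10, its relative LOXL1 by 2.77 and LTBP4 by 2.91 (adjusted p of 0.015, 0.0011, 3.6e-05 and 0.0033, edgeR). Without GFP-NEG replicate 2, 1 gene of the list was called, FBN2 (adjusted p of 0.0023), with a log2 fold change of 2.08 for ELN and 2.28 for LOX. Without GFP-HI replicate 1, 8 genes of the list were called, and ELN, LOXL1 and LTBP4 were not among them. Without GFP-NEG replicate 1 the log2 fold changes of LOX, LOXL1 and LTBP4 were larger, at 4.96, 5.51 and 4.53.

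Of 20 basement membrane genes, 9 rose, 0 fell and 11 did not pass (edgeR), beside 8.35% of all genes called higher and 27.6% lower. The median was 1.35, and 0 genes of the list were lower at an unadjusted p under 0.05 or under DESeq2. The largest rises were in FREM1 (4.66 ± 0.61 SE, adjusted p of 1.7e-11, edgeR) and FREM2 (3.19, adjusted p of 7.6e-07), proteins of the Fraser complex that anchors epithelium to the mesenchyme below it, and in the laminin chain LAMC3 (3.67, adjusted p of 2.8e-07). FREM1 was at 99.0 ± 33.7 CPM in GFP-HI, against 3.87 ± 1.96 CPM in GFP-NEG (SD, n = 2). Unlike the members, FREM1 and LAMC3 were lower in GFP-NEG replicate 1 than in replicate 2. The nidogen NID1, a binding partner of FBLN1 and FBLN2, rose by 2.80 (adjusted p of 0.0028, edgeR). NID2 did not pass (1.21, adjusted p of 0.067, edgeR; 0.0031 to 0.86 over 11 alternatives), and its log2 fold change was 3.07 without GFP-NEG replicate 1 and 0.39 without GFP-NEG replicate 2. FREM1, FREM2 and LAMC3 were the 3 genes of the list called without GFP-NEG replicate 2, and 4 genes were called without GFP-HI replicate 1. Without GFP-NEG replicate 1 NID1 was at 4.23, and without GFP-NEG replicate 2 LAMC3 was at 5.60.

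Among 12 tested genes of the interstitial matrix, 3 rose and 3 fell, and the median was 0.06. Of all genes tested 8.35% were called higher and 27.6% lower, so the share of this list that fell lay near that of all genes. TNC, TNXB and the FBLN1 partner versican (VCAN) rose by 2.80, 2.00 and 2.32 (adjusted p of 0.0095, 0.0076 and 0.0080, edgeR). Aggrecan (ACAN), the other large proteoglycan that binds FBLN1 and FBLN2, fell by 3.15 in log2 units (adjusted p of 1.0e-06), from 106 ± 91.3 CPM in GFP-NEG to 12.0 ± 6.54 CPM in GFP-HI (SD, n = 2, edgeR). HAPLN3 and BCAN, named after their values were seen, were also called lower (-1.50 and -4.78, adjusted p of 0.014 and 0.0041, edgeR). HAPLN3 lost the call in 5 of 11 alternatives (adjusted p of 0.0031 to 0.79), DESeq2 among them, and was at 0.30 without GFP-NEG replicate 1. BCAN had 3 and 0 counts in GFP-HI, against 12 and 22, and lost the call when any 1 library was left out. Fibronectin (FN1) was at 8018 and 6436 CPM in GFP-HI, against 4537 and 738 CPM in GFP-NEG, and did not pass (1.45, adjusted p of 0.39, edgeR). ECM1, a binding partner of EFEMP1, was at 282 ± 10.6 CPM and 243 ± 29.6 CPM (SD, n = 2), a log2 fold change of 0.21 that turned to -0.20 with library size alone and -0.10 with upper-quartile scaling. Leaving out GFP-NEG replicate 2 ended the calls of VCAN, TNC and TNXB, and ACAN kept its call (-3.87). Without GFP-NEG replicate 1 ACAN was at -1.75, still past the threshold, and TNC was at 4.98. TNC also lost its call without either GFP-HI replicate, and TNXB without GFP-HI replicate 2. The FN1 value was 3.34 without GFP-NEG replicate 1 and 0.63 without GFP-NEG replicate 2.

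Of 10 tested proteases and inhibitors, 3 rose and 2 fell, with a median of 0.91. Of all genes tested 8.35% were called higher and 27.6% lower, so the share of this list that fell did not exceed that of all genes. MMP2 and the serine protease HTRA1 rose by 2.72 and 2.71 (adjusted p of 0.0018 and 1.8e-04, edgeR), and both lost the call without GFP-NEG replicate 2. MMP2 was at 4.22 without GFP-NEG replicate 1. ADAMTS5 rose by 1.33 with an adjusted p of 0.043 (edgeR), a call that did not hold under DESeq2 (0.070), library size alone (0.20), upper-quartile scaling (0.14), a filter of at least 1 CPM in 2 libraries (0.060) or without any 1 library (0.032 to 0.55 over 11 alternatives). MMP12 and MMP3, named after their values were seen, were called lower (adjusted p of 1.5e-05 and 0.027, edgeR). MMP12 had 1 and 3 counts in GFP-HI, against 70 and 53, and was called in 11 of 11 alternatives. MMP3 had 15 and 0 counts in GFP-HI, against 41 and 11, and lost the call under DESeq2 (0.067) and without GFP-HI replicate 2 or GFP-NEG replicate 1 (0.0090 to 0.62 over 11 alternatives). TIMP3, which binds EFEMP1, was at 1259 ± 359 CPM in GFP-HI, against 632 ± 541 CPM in GFP-NEG (SD, n = 2), and did not pass (0.99 in log2 units, adjusted p of 0.38, edgeR). ADAMTS1, the protease for which FBLN1 is a cofactor, did not pass either (0.23, adjusted p of 0.77, edgeR). Its log2 fold change was 2.38 without GFP-NEG replicate 1, which passed (adjusted p of 0.015), and -0.63 without GFP-NEG replicate 2.

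Of 9 integrin chains, 2 rose and 1 fell, with a median of 0.70, beside 8.35% of all genes called higher and 27.6% lower. The share of this list that fell thus did not exceed that of all genes. ITGB8 rose by 2.02 (adjusted p of 0.0023, edgeR) but not without GFP-NEG replicate 2 (0.31). ITGA9 rose by 1.27 (adjusted p of 0.045, edgeR) and lost the call in 9 of 11 alternatives (0.044 to 0.61): DESeq2 (0.060), library size alone (0.19), upper-quartile scaling (0.13), both other count filters (0.060 and 0.056) and any 1 library left out. ITGA4, a chain found on leukocytes, fell by 4.09 in log2 units (adjusted p of 3.6e-09, edgeR), from 161 ± 104 CPM in GFP-NEG to 9.44 ± 7.33 CPM in GFP-HI (SD, n = 2). The immune markers were high in the same GFP-NEG libraries, and their part in this value was not tested.

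**Figure D5:**
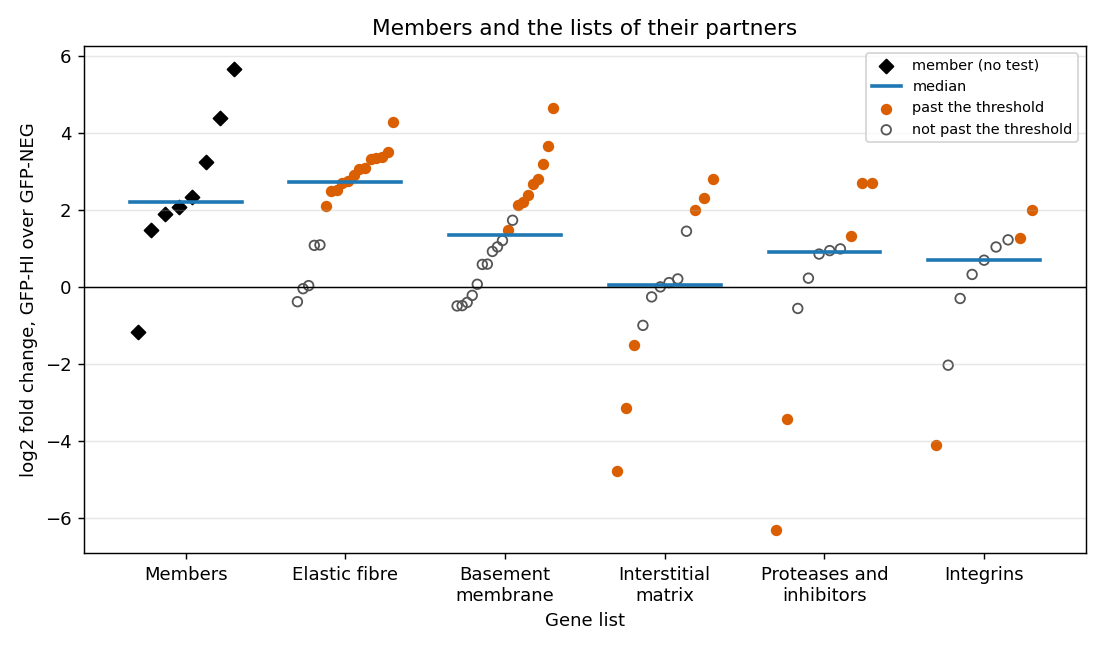
Fitted log2 fold change of GFP-HI over GFP-NEG for the 8 members and the tested genes of 5 partner lists, 1 point per gene, with the median of each list as a bar. The elastic fibre list has 13 of 18 genes past the threshold and 0 below 0 among them, and the interstitial matrix list has 3 called on either side.

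Where a member shares its stretch of the genome with another gene, the counts of both depend on how reads were assigned. In the RefSeq gene table of assembly Sscrofa11.1, FBLN5 overlaps TRIP11, EFEMP1 overlaps CCDC85A and EFEMP2 overlaps MUS81. No strand setting is given in the sources used here. Of the overlapping genes, TRIP11 had a log2 fold change of 1.17, MUS81 of 0.13 and CCDC85A of -2.21. Of the 17 overlapping or adjoining protein-coding genes that were tested, 2 were called higher, 3 lower and 12 neither, with a median of -0.42. Over all genes tested, 8.35% were called higher and 27.6% lower, with a median of -0.25. The neighbours of HMCN2, NCS1 and ASS1, had log2 fold changes of 0.43 and -1.20, and those of FBLN1, ATXN10 and RIBC2, had 1.39 and -0.88.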

How the data were processed

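The authors deposited raw counts per gene, 1 table a library, and every row names a gene. The submitters' processing notes name featureCounts, Subread 1.5.2 and DESeq2 1.37.6 without role or setting. The aligner, strand setting and genome build are not given in the sources used here. Per the file headers, the authors' table of the comparison holds the same counts, log2 fold changes, test columns and 4 columns of normalized values that were not used, since 2 of their headings do not match the counts beneath them.

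Ensembl identifiers with a symbol in the name table provided (844) were renamed where the symbol was free (834). The test was edgeR 4.0.16 (R 4.3.3; glmQLFit and glmQLFTest, TMM, filterByExpr, group as the only term) with Benjamini-Hochberg adjustment over 19682 genes and a threshold of 0.05. CPM are counts over the TMM-scaled library size, and 1 count was worth 0.0453 to 0.155 CPM. An SE is the absolute log2 fold change over the square root of the F statistic of this test. The moderated spread lay fully on the common trend, so an SE is not the replicate error of that gene. Alternatives were RLE, upper-quartile and library-size scaling, other count filters, a prior count of 2, DESeq2 1.42.0, the replicate block and leaving out each library. Named genes were the members, known binders, up to 4 called genes per partner list and direction (mean of at least 10 CPM, groups apart), the 3 most similar genes per member, and LGR5. The members and lists were chosen with earlier results of these data known. With 2 libraries against 2, an exact permutation test cannot go below a p of 0.333. Adjusted p-values rest only on the spread between these libraries, taken along the trend over all genes and not gene by gene.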

Additional observations from a re-analysis of the deposited data

How the results depend on the processing

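The 7 positive log2 fold changes of the members stayed positive under every alternative run (scaling, filters, prior count, DESeq2, replicate block and each library left out). FBLN7 turned from -1.18 to 0.18 without GFP-NEG replicate 1, and its range when 1 library was left out was -1.89 to 0.18. The median of the 8 genes then ranged from 1.40 to 4.20, the members called higher from 2 to 7 and those called lower from 0 to 1. With library size alone and with upper-quartile scaling 1 member, FBLN7, was called lower and 6 were called higher, FBLN2 no longer among them. These 2 scalings moved the median of all genes from -0.25 to -0.68 and -0.58, and genes called higher from 1643 to 888 and 1083.

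With 1 library left out, the lone library of its group is assumed to vary like the others. Called genes then ranged from 216 to 1635 (higher) and 1575 to 4999 (lower) over all genes, 1 to 15 for elastic fibre, 3 to 13 for basement membrane, 2 to 7 for interstitial matrix, 2 to 5 for proteases (3 under DESeq2), 1 to 3 for integrins, 1 to 6 for fibroblast, 2 to 4 for muscle and pericyte, 2 to 7 for endothelial, 3 to 5 for immune and 0 to 2 for epithelial genes. ADAMTS1 turned from 0.23 to -0.034 with library size alone and ranged from -0.63 to 2.38 with 1 library left out. HAPLN3 was at 0.30 without GFP-NEG replicate 1, from -2.31 to 0.30 over the libraries left out. ACTA2 ranged from -0.43 to 2.76. ECM1 was at -0.20 with library size alone and -0.10 with upper-quartile scaling. Without the collagen markers (chosen after seeing the data), the mean log2 ratio per fibroblast marker count turned from 0.83 to -0.57 for HMCN1 and from 0.07 to -1.33 for EFEMP1. The causes were not tested.

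The replicate numbers are not known to mark 1 pig; same-numbered libraries had deviations with an r of 0.16 across genes. With the number as a replicate block, 1707 genes were called higher and 4793 lower, and 7 members stayed called higher. Among the partner genes named, NID2 (1.68) was then called (adjusted p of 0.021, edgeR; 0.0031 to 0.86 over 11 alternatives) and HAPLN3 (-1.05) was not (0.13; 0.0031 to 0.79). Of the 3 genes most similar to each member, 1 to 3 were kept with 0.5 CPM added. Levels per transcript length were not computed. The shallower GFP-NEG libraries limit the precision of HMCN2, at 43 and 42 counts.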
